A study of Mus musculus with 2 samples.

Results

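The 7 genes for subunits of the NMDA receptor (Grin1, Grin2a, Grin2b, Grin2c, Grin2d, Grin3a and Grin3b) were followed in hippocampal Cajal-Retzius (CR) cells of mice at postnatal day 14 (P14). They were chosen by symbol among the 32285 genes of the files, and each matched 1 row. No threshold on a measured value was used, but the choice was made with earlier results of these data known. The control library came from ΔNp73-Cre; Cic flox/+; tdT mice, which are conditional heterozygotes rather than wildtype, and the knockout library from ΔNp73-Cre; Cic flox/flox; tdT mice, all of them littermates. ΔNp73-Cre drives recombination in the CR lineage, so both genotypes carried Cre, at least 1 floxed allele of Cic (capicua, a transcriptional repressor) and the red reporter tdT by which live cells were sorted. Each library pooled 4 mice, with 3 males and 1 female behind the control library and 2 males and 2 females behind the knockout library, and both carried the same batch label. With 1 library per genotype, no difference between genotypes had a replicate check. No test was run for this reason, and each 95% interval below covers counting error only. The question here was which subunits CR cells express at P14 and whether they differ with the loss of Cic or between kinds of CR cells.

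The NMDA receptor is a glutamate-gated cation channel built as a tetramer. It always holds GluN1, the product of Grin1, which binds glycine or D-serine, and GluN1 pairs with GluN2 subunits, which bind glutamate, or with GluN3 subunits, which bind glycine. GluN2A and GluN2B are the main partners in forebrain principal neurons, GluN2D is found in young brains and in some interneurons, and GluN3A lowers the calcium permeability of the channel and is typical of immature neurons. CR cells are early-born neurons that secrete reelin and mostly disappear from the hippocampus in the weeks after birth.

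The residue in the pore loop called the N site sets how the channel handles calcium and magnesium, and it is shown because it separates the Grin3 genes from the others. The coding stretch around it is shown for 6 of the 7 genes, as 30 bases read 5′ to 3′ on the coding strand of GENCODE M21 transcripts (GRCm38), with the codon of the N site in capitals.
Grin1: ggcgtcctgctcAACtctggcattggggaa
Grin2a: ggcctggtcttcAACaattctgtgcccgtc
Grin2c: gcactggtcttcAACaactctgttcccatc
Grin2d: gccctggtgttcAACaactccgtgccagtg
Grin3a: gcccttctgtttGGCagaacagcagccatc
Grin3b: gccattctcttcGGAcgcactgtctccagt
The capitals code for asparagine in Grin1 and in the 3 Grin2 genes shown and for glycine in Grin3a and Grin3b. These Grin2 stretches were identical at 23 to 25 of the 30 bases in each pair, Grin3a and Grin3b at 18, and Grin1 and these Grin2 genes at 10 to 13. Each stretch lay within 1 exon, at chr2:25297371-25297400 for Grin1, chr16:9653546-9653575 for Grin2a, chr11:115253848-115253877 for Grin2c, chr7:45854378-45854407 for Grin2d and chr4:49770569-49770598 for Grin3a, all on the minus strand, and at chr10:79974534-79974563 on the plus strand for Grin3b. These are reference sequences that identify the genes, and the libraries, made from the 3′ ends of transcripts, were not read for them.

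CR cells were taken as barcodes with at least 2000 UMIs (molecular barcodes that count single captured RNAs) and at least 5 UMIs of Reln, the reelin gene. This left 1003 of 1011 control barcodes and 390 of 406 knockout barcodes, with a median of 6224 and 6664 UMIs per cell, and no cell barcode was shared by the cells of both libraries. Trp73 had a UMI in 88.7% of control and 92.3% of knockout cells, and all 10 CR markers were detected, Reln by the rule itself. Of 7 GABAergic markers, Dlx1, Dlx2, Dlx6os1 and Lhx6 were at 0 in both libraries. Gad1, Gad2 and Slc32a1 had 1, 1 and 5 UMIs in control cells and 1, 1 and 0 UMIs in knockout cells. Cic itself stood at 58.9 CPM (counts scaled to 1000000 UMIs outside mitochondrial and ribosomal protein genes) in control cells and 51.3 in the knockout, a ratio of 0.871 (0.714 to 1.06), and whether the counted 3′ end lies in the deleted part was not checked, so Cic could not test the labels. Etv4, a gene repressed by capicua, was 36.0-fold higher in the knockout (20.6 to 68.8). It had a UMI in 1.10% of control and 27.2% of knockout cells. The study reported that most but not all hippocampal CR cells of this knockout line had lost capicua. Knockout cells were not divided by this, so the genotype ratios below may mix cells with and without it. Summed CR markers stood at 16370 CPM in control and 15835 CPM in knockout cells. Of these sums, 8176 and 7873 CPM came from Reln, which the rule for cells itself requires. Summed markers of other cell types ran from 1.06 (GABAergic) to 115 CPM (endothelial or mural) in control cells. In knockout cells they ran from 0.723 to 105 CPM for the same types.

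Grin1 made up most of the NMDA receptor RNA of CR cells. It was counted 1534 times in the control, or 232 CPM (221 to 244), and 701 times in the knockout, or 253 CPM (235 to 273). Grin3a followed with 184 UMIs (27.9 CPM, 23.99 to 32.2) in control cells and 51 UMIs (18.4 CPM, 13.7 to 24.2) in the knockout. Grin2d was the most counted Grin2 gene of the control with 32 UMIs (4.85 CPM, 3.32 to 6.84), and had 11 UMIs in the knockout (3.98 CPM, 1.99 to 7.12). RNA of the obligatory subunit was thus counted far more often than that of any partner it could assemble with. How evenly the 7 genes were caught was not tested, and protein was not measured. Grin2b, with 12 and 10 UMIs, Grin3b, with 12 and 5 UMIs, Grin2c, with 5 and 2 UMIs, and Grin2a, with 2 and 2 UMIs (control and knockout in turn), all stayed under 4 CPM. As a share of the UMIs of the 7 genes, Grin1 held 86.1% (84.4% to 87.7%) in control cells and 89.6% (87.3% to 91.7%) in the knockout. The 4 Grin2 genes together held 2.86% (2.14% to 3.75%) and 3.20% (2.08% to 4.68%), less than the Grin3 genes with 11.0% (9.59% to 12.6%) and 7.16% (5.45% to 9.20%). Among the Grin2 UMIs, Grin2d held 62.7% (48.1% to 75.9%) of 51 in control cells and 44.0% (24.4% to 65.1%) of 25 in knockout cells, and Grin2b 23.5% (12.8% to 37.5%) and 40% (21.1% to 61.3%), with intervals that overlapped between the libraries.

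**Figure D1:**
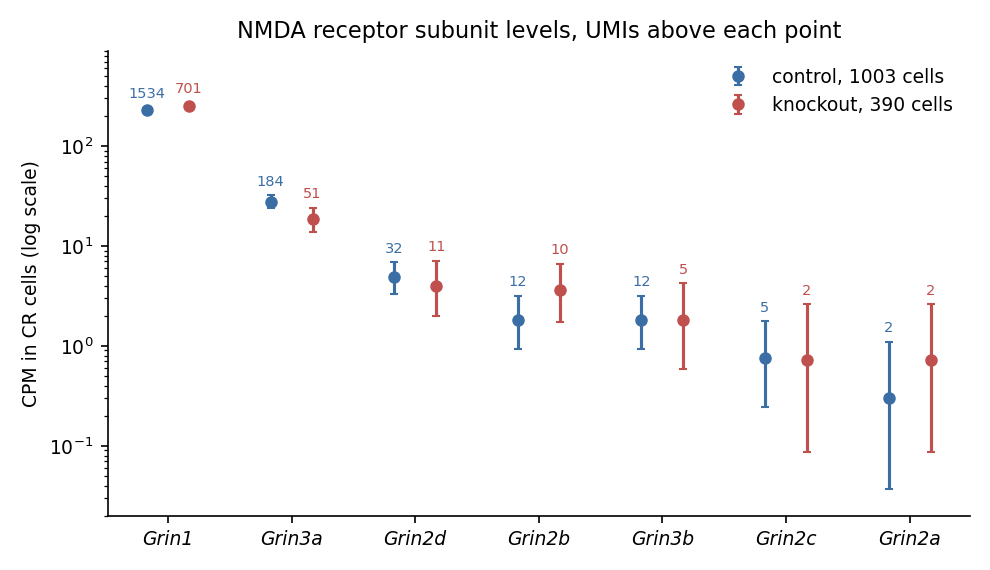
CPM of each subunit gene in control and knockout CR cells on a log scale, as points with 95% Poisson intervals, with the number of UMIs above each point. Grin1 stands above 200 CPM, Grin3a near 28 and 18 CPM, and the other 5 genes below 5 CPM in both libraries.

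Levels of different genes were ordered per kilobase of annotated transcript. On this scale Grin1 stood at 54.8 CPM per kilobase in control cells and 59.8 in the knockout, Grin3a at 3.72 and 2.46, and Grin2d at 0.893 and 0.732. Grin1 was 14.7 times Grin3a in the control (12.6 to 17.3) and 24.3 times in the knockout (18.3 to 33.0), and Grin3a was 4.17 times Grin2d (2.85 to 6.27) and 3.36 times (1.73 to 7.15). Grin1 and Grin3a thus held the first and second place in both libraries, while Grin2d over Grin3b had a ratio of 1.61 (0.808 to 3.44) and 1.33 (0.426 to 4.88). Of the neighbours further down, only Grin3b over Grin2c in the control had an interval above 1, at 3.58 (1.17 to 13.0), so the order below Grin3a was mostly not resolved. Transcript length is a poor guide where only 3′ ends are captured, and the first 3 genes also came in this order by CPM without length. Per kilobase of gene span, Grin3b passed Grin3a in both libraries, at 0.281 against 0.151 CPM per kilobase in control cells and 0.279 against 0.1001 in the knockout.

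Most cells with any NMDA receptor RNA held Grin1 and no other subunit. Grin1 had at least 1 UMI in 727 of 1003 control cells, which is 72.5% (69.6% to 75.2%), and in 277 of 390 knockout cells, which is 71.0% (66.2% to 75.5%). Grin3a was found in 11.96% (10.02% to 14.1%) and 10.3% (7.43% to 13.7%) of cells and Grin2d in 3.09% (2.11% to 4.36%) and 2.82% (1.42% to 4.99%). Cells with Grin1 but no Grin2 and no Grin3 UMI came to 60.9% in control cells and 57.9% in the knockout, and cells with no UMI of the 7 genes to 22.4% and 25.4%. These shares rest on depth: with each cell thinned to 2000 UMIs, Grin1 was found in 35.7% of control (32.7% to 38.7%) and 37.4% of knockout cells (32.6% to 42.4%), and Grin3a in 3.79% and 3.59%. The intervals of the libraries overlapped at both depths. Droplets of 20 to 100 UMIs, which hold free RNA, had a Grin1 UMI in 0.2996% of 29040 control droplets, at a median of 89 UMIs, and in 0.137% of 75813 knockout droplets, at a median of 44 UMIs.

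Within single cells Grin1 spread from 0 to a few molecules. In the control, 30.8% of cells held 1 Grin1 UMI, 20.9% held 2, 10.1% held 3 and 10.7% held 4 or more. In the knockout these shares were 24.1%, 18.2%, 15.4% and 13.3%. After thinning to 2000 UMIs the libraries differed less, with 26.1% of control and 27.4% of knockout cells at 1 Grin1 UMI. Grin3a was met as 1 UMI in 81 of its 120 control cells and in 32 of its 40 knockout cells, and as 4 or more in 4 and 1 cells.

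Grin1 was found beside Grin3a about as often as their separate shares multiply to. Grin1 and Grin3a shared 82 control cells, where the product of the shares gives 87.0, and 30 knockout cells, where it gives 28.4. Grin1 and any Grin2 gene shared 28 control cells against a product of 31.9, and 21 knockout cells against 15.6. In cells thinned to 2000 UMIs these last counts were 5 against 6.07 and 6 against 2.62. All 11 knockout cells with Grin2d also held Grin1, as did 21 of 31 control cells with Grin2d, while the products of the shares were 7.81 and 22.5. In thinned control cells Grin1 and Grin2d shared 4 cells against a product of 3.57. For the Grin2 genes the control counts thus lay on both sides of their products, while the knockout counts given all lay above theirs. These counts were small, and the difference between the libraries was not tested.

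The Grin2 genes were set against the free RNA of the same libraries, which shows whether the assay could catch them at all. Grin2b was counted 6 times in control droplets and 19 times in knockout droplets. Per 100 Grin1 UMIs this was 6.59 Grin2b UMIs in control droplets against 0.782 in control CR cells, 8.43-fold more (2.60 to 24.3), and 17.6 in knockout droplets against 1.43 in knockout CR cells, 12.3-fold more (5.46 to 29.7). So both libraries did capture some Grin2b, and the CR cells held little of it beside their Grin1. These values also rest on Grin1, whose CPM was itself higher in cells than in droplets, as given below. How well Grin2b was captured was not tested. The 4 Grin2 genes together were 3.97-fold more (1.92 to 7.54) and 7.27-fold more (4.09 to 13.0) per Grin1 UMI in droplets than in cells, whereas Grin3a was 1.47-fold (0.821 to 2.44) and 1.40-fold (0.658 to 2.72). Grin2d was 1.58-fold (0.310 to 5.05) and 1.77-fold (0.317 to 6.70), so that for Grin3a and Grin2d, unlike Grin2b, the intervals of both libraries held 1.

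**Figure D2:**
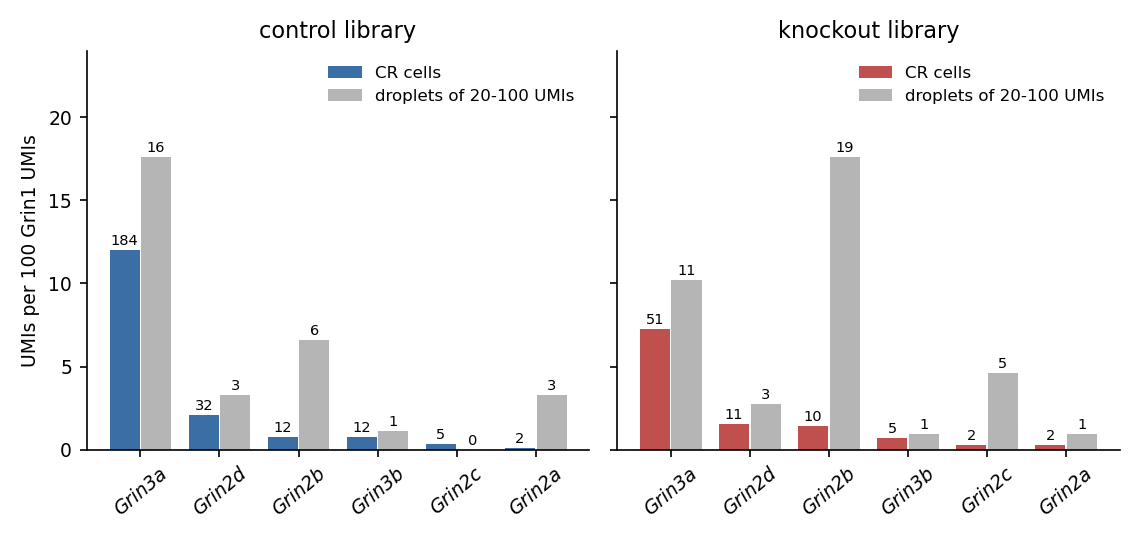
UMIs of each Grin2 and Grin3 gene per 100 Grin1 UMIs in CR cells (coloured bars) and in droplets of 20 to 100 UMIs (grey bars) of the control (left) and the knockout library (right), with the number of UMIs above each bar. Grin2b is the highest Grin2 bar of the droplets in both libraries and is under 2 in both sets of cells.

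On the CPM scale, Grin2b in CR cells was 0.660 times its level in droplets in the control (0.229 to 2.14) and 0.578 times in the knockout (0.240 to 1.31). Both intervals held 1, so whether its CPM differed from that of free RNA was not resolved. Grin2d was 3.52-fold (1.10 to 18.0) and 4.03-fold (1.06 to 22.5) above the droplets, Grin3a 3.795-fold (2.28 to 6.78) and 5.09-fold (2.62 to 10.8), and Grin1 5.56-fold (4.50 to 6.95) and 7.13-fold (5.82 to 8.82). Grin1, Grin3a and Grin2d were therefore the members whose intervals lay above the level of free RNA in both libraries. For Grin2d this rested on 3 droplet UMIs in each library, with lower bounds close to 1. For Grin2a, Grin2c and Grin3b the counts were too low for the intervals to leave out 1. Free RNA equal to 1 droplet of median size per cell would account for 0.214 of the 12 control Grin2b UMIs. In the knockout it would account for 0.0946 of the 10 Grin2b UMIs. This uptake was assumed and not measured. Droplets above the upper UMI limit were left out, and the control median lay close to that limit, so the control value may be too low. The part of free RNA in the Grin2b counts was thus not tested.

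The few Grin2 UMIs sat unevenly over cells. Of the 5 Grin2c UMIs of the control, 4 came from 1 cell of 3569 UMIs, which also held 36 of the 59 UMIs of astrocyte markers found in all control cells beside 38 UMIs of CR markers. These were all the astrocyte marker UMIs of the 14 control cells with a Grin2a, Grin2b or Grin2c UMI, which stood at 336 CPM for these markers against 3.54 CPM in the other 989, and the like values were 11.95 and 4.85 CPM in 11 and 379 knockout cells. Of the 10 knockout Grin2b UMIs, 4 came from 1 cell of 7341 UMIs with 3 Grin1 UMIs, 85 UMIs of CR markers and none of the GABAergic, pyramidal or granule, or astrocyte markers. Grin2d was spread more evenly, as 1 UMI per cell in 30 of 31 control cells and in all 11 knockout cells. The part of other cells' RNA in the Grin2 counts was not tested.

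Between the genotypes, Grin3a was the member that differed most among those with enough counts. Its level was 27.9 CPM in control cells and 18.4 CPM in the knockout, a ratio of 0.662 (0.475 to 0.907) or a log2 ratio of -0.60. Grin1, at 232 and 253 CPM, had a ratio of 1.09 (0.996 to 1.19), and the 7 genes summed, at 269.8 and 283 CPM, a ratio of 1.05 (0.962 to 1.14). Only Grin1 and Grin3a reached 100 UMIs over both libraries. Of these, Grin3a was past a log2 ratio of 0.25 downwards and neither was past it upwards. This threshold comes from the methods of the study, which applied it within clusters and with a minimum share of cells detecting the gene. Here it was set on ratios of summed CPM over all cells, without such a share. Over the 9442 genes with as many UMIs, 13.2% were past it downwards and 16.3% upwards. Summed markers of pyramidal or granule cells, of which Neurod6 was at 0 in both libraries and Fibcd1 held most, stood at 64.4 CPM in control cells and 73.4 CPM in knockout cells, and their part in these ratios was not tested. For the other members the intervals were wide: 0.820 for Grin2d (0.373 to 1.67), 1.99 for Grin2b (0.770 to 5.02), 0.994 for Grin3b (0.274 to 3.03), 0.955 for Grin2c (0.0909 to 5.83) and 2.39 for Grin2a (0.173 to 32.9). For these 5 genes the counts thus allowed any change within these intervals.

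The Grin3a ratio was further from 1 in male than in female cells. Cells were assigned to a sex by Xist and 4 Y-linked genes. In males Grin3a stood at 27.3 CPM in 702 control cells (128 UMIs) and 13.3 CPM in 194 knockout cells (19 UMIs), a ratio of 0.488 (0.284 to 0.793). In females it stood at 26.5 CPM in 227 control cells (38 UMIs) and 24.5 CPM in 176 knockout cells (30 UMIs), a ratio of 0.924 (0.553 to 1.53). The lower Grin3a of the knockout was thus found in male cells, while the interval in female cells held both 1 and the ratio over all cells. The intervals of the 2 ratios overlapped, and the difference between them was not tested. Female over male cells gave a Grin3a ratio of 0.971 (0.658 to 1.40) in the control library and 1.84 (1.003 to 3.46) in the knockout library. Grin1 was at 241 and 253 CPM in male and 210.5 and 255 CPM in female control and knockout cells, ratios of 1.05 (0.931 to 1.18) and 1.21 (1.03 to 1.43). As few mice stand behind each sex, sex and single animals cannot be told apart.

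**Figure D3:**
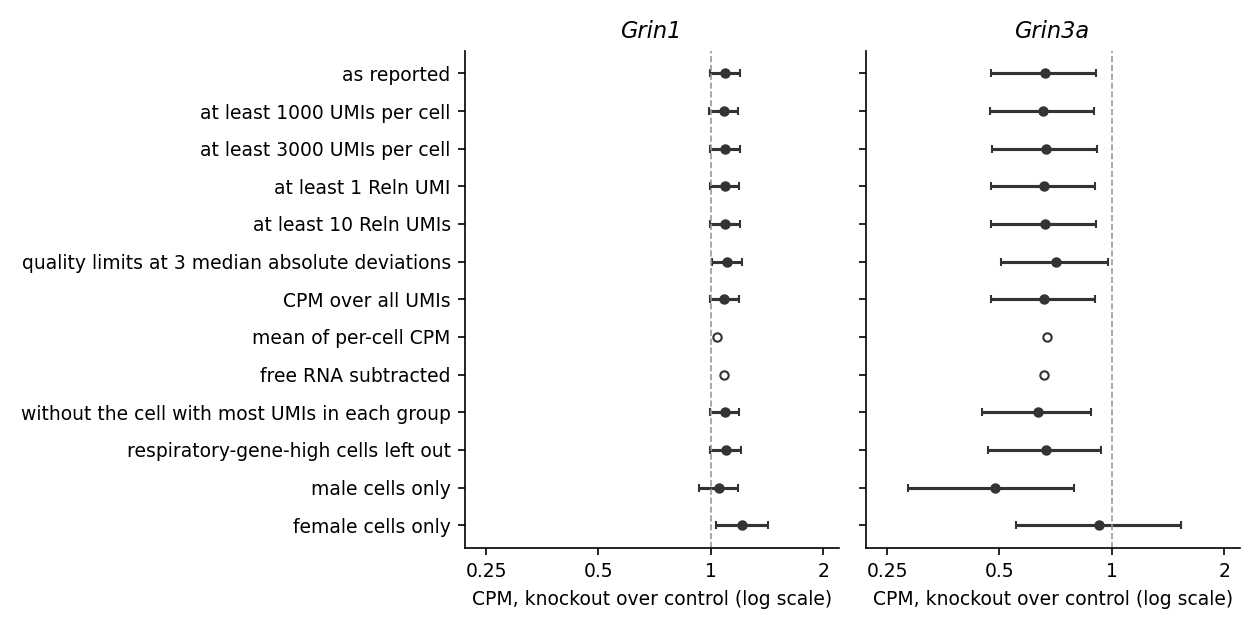
Ratio of CPM in knockout over control cells for Grin1 (left) and Grin3a (right) on a log scale, as reported and under each alternative, with 95% intervals (open points, alternatives that give no interval, and dashed line, a ratio of 1). Grin3a stays below 1 throughout, and is closest to 1 in female cells at 0.924. Thinning is not among these alternatives.

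CR cells were then split by a UMI of Cck (a neuropeptide), of Grik1 (a kainate receptor subunit) or of Chst8 or Alkal2 (a sulfotransferase and a receptor tyrosine kinase ligand), genes found in some CR cells and not in others. Positive cells numbered 324, 194 and 232 among control cells and 110, 70 and 91 among knockout cells. These groups overlapped, as with 70 control and 27 knockout cells positive for Cck and for Chst8 or Alkal2. A cell without a UMI may still express the gene, so negative cells are cells in which it was not caught.

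Grin1 was higher in cells with Chst8 or Alkal2. In the control it stood at 268 CPM in positive (243 to 294) and 221 CPM in negative cells (208 to 234), a ratio of 1.21 (1.08 to 1.36) or a log2 ratio of 0.28. In the knockout it stood at 328 CPM (289 to 372) and 225 CPM (205 to 247), a ratio of 1.46 (1.24 to 1.70) or a log2 ratio of 0.54. Both libraries thus showed the same direction, and in each the CPM intervals of positive and negative cells did not overlap. Of the 2 members with 100 UMIs in control cells and the 1 in knockout cells, Grin1 was past a log2 ratio of 0.25 in both, where 13.7% of 8304 control genes and 18.1% of 5226 knockout genes were past it in that direction. With cells thinned to 2000 UMIs, Grin1 had a UMI in 42.7% of positive and 33.6% of negative control cells, and in 54.9% and 32.1% of knockout cells. With positivity also taken from the thinned counts, the Grin1 ratio was 1.35 in control cells and 2.02 in knockout cells, the highest of the alternatives in each library. With at least 2 UMIs for positive cells, the control ratio was 1.14, the lowest of its alternatives and under the threshold. Positive cells were somewhat deeper, with a median of 6720.5 against 6059 UMIs in the control library and 7869 against 6361 in the knockout library, and the part of depth was not tested. Grin3a, at 28.8 and 27.6 CPM in positive and negative control cells, had a ratio of 1.04 (0.732 to 1.46), and in the knockout, at 23.7 and 16.4 CPM with 18 and 33 UMIs, one of 1.44 (0.765 to 2.64). Both Grin3a ratios turned when positivity was also taken from the thinned counts, to 0.217 (0.00536 to 1.28) and 0.546 (0.0129 to 3.59). They then rested on 1 Grin3a UMI in the positive cells of each library.

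Grin3a was higher in cells with Grik1. In the control it stood at 42.8 CPM in the 194 positive cells (59 UMIs, 32.6 to 55.2) and at 23.9 CPM in the 809 negative cells (125 UMIs, 19.9 to 28.5), a ratio of 1.79 (1.29 to 2.46) or a log2 ratio of 0.84. In the knockout it stood at 26.1 CPM in 70 positive cells (14 UMIs) and 16.6 CPM in 320 negative cells (37 UMIs), a ratio of 1.57 (0.785 to 2.98), which was in the same direction but under 100 UMIs. Grin1 differed little in either library, with 222 CPM in positive and 235 CPM in negative control cells, a ratio of 0.945 (0.831 to 1.07), and 252 and 254 CPM in the knockout, a ratio of 0.991 (0.816 to 1.20). Of the members with 100 UMIs, 1 of 2 in control cells and 0 of 1 in knockout cells were past the threshold in either direction, beside 34.4% of all control genes and 39.5% of all knockout genes. Grik1 itself was lower in the knockout, at 79.7 and 48.1 CPM, and its positive cells were 19.3% and 17.9% of all cells. In Grik1-positive cells Grin3a stood at 42.8 CPM in the control and 26.1 CPM (14.3 to 43.8) in the knockout. In Grik1-negative cells it stood at 23.9 CPM and 16.6 CPM (11.7 to 22.9). The intervals of the libraries overlapped in both groups of cells, and the part of Grik1 in the lower Grin3a of the knockout was not tested. With cells thinned to 2000 UMIs, Grin3a had a UMI in 4.64% of positive control cells (2.14% to 8.62%) and 3.58% of negative control cells (2.41% to 5.11%), and these intervals overlapped. With positivity also taken from the thinned counts, the Grin3a ratio was 2.10 (0.843 to 4.61) in control cells, on 8 and 35 UMIs, and 3.01 (0.545 to 11.1) in knockout cells, on 3 and 12 UMIs. Summed markers of pyramidal or granule cells moved with this split, at 87.1 CPM in positive and 58.4 CPM in negative control cells and 89.5 and 69.5 CPM in those of the knockout, and their part in the Grin3a difference was not tested.

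None of the members with 100 UMIs, which were Grin1 and Grin3a in control cells and Grin1 in knockout cells, was past the threshold between cells with and without Cck as counted here. Grin1 stood at 217 CPM in positive and 240.4 CPM in negative control cells, a ratio of 0.904 (0.810 to 1.01), and at 263 and 249.7 CPM in the knockout, a ratio of 1.05 (0.891 to 1.24). Grin3a had a ratio of 1.05 in the control (0.768 to 1.44), at 28.8 and 27.4 CPM, and of 1.13 in the knockout (0.585 to 2.10), at 20.1 and 17.8 CPM. Over all genes, 32.3% of those of the control and 42.2% of those of the knockout were past the threshold in either direction. With Cck positivity also taken from counts thinned to 2000 UMIs, the Grin1 ratio was 0.774 in the control library and 0.804 in the knockout library. Both values lay below 1, the control one past the threshold, so the knockout direction turned. With positivity kept from all counts, thinned Grin1 had a UMI in 30.2% of positive and 38.3% of negative control cells. In the knockout these shares were 38.2% and 37.1%, so its direction did not turn in these groups. The part of depth was not tested. The control ratio of Grin3a was past the threshold in 2 of 12 alternatives, at 1.26 with each cell weighted equally and 1.30 without respiratory-gene-high cells. All 10 knockout Grin2b UMIs came from the 280 Cck-negative cells, though the interval of the ratio reached 1.10, and 3 of the 12 control Grin2b UMIs came from Cck-positive cells. In the 387 control and 173 knockout cells with none of the 4 genes, Grin1 stood at 229 CPM in control cells and 222 CPM in knockout cells, and Grin3a at 22.8 and 14.2 CPM.

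**Figure D4:**
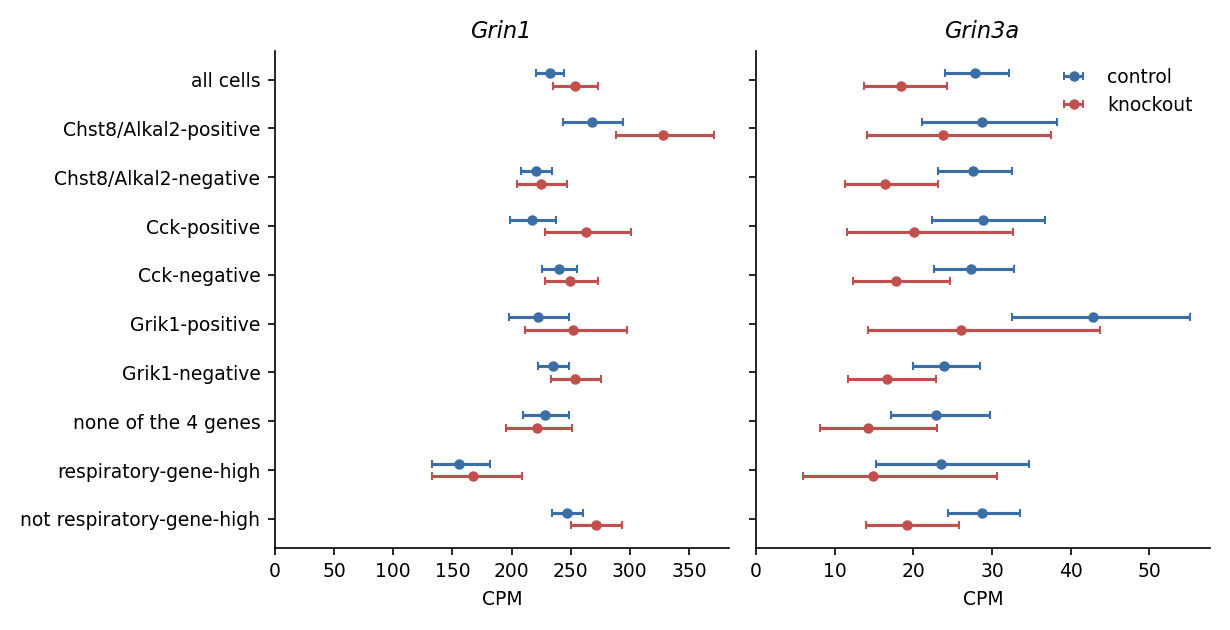
CPM of Grin1 (left) and Grin3a (right) in groups of control and knockout CR cells, as points with 95% Poisson intervals. Grin1 is highest in Chst8/Alkal2-positive cells, at 268 and 328 CPM, and lowest in respiratory-gene-high cells, and Grin3a is highest in Grik1-positive cells, at 42.8 and 26.1 CPM.

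A minority of CR cells gave 1.5% or more of their UMIs to nuclear genes of the respiratory chain, and Grin1 was lower in these cells. There were 102 such cells of the control and 41 of the knockout. Grin1 was at 156 CPM in them (133 to 181) and 247 CPM in the other control cells (234 to 261), a ratio of 0.631 (0.534 to 0.742), and at 168 CPM (133 to 209) and 271 CPM (250.2 to 293) in the knockout, a ratio of 0.619 (0.483 to 0.783). The log2 ratios of -0.66 and -0.69 compare with a median over all genes of -0.13 in control cells and -0.16 in the knockout, a shift that comes with this split. These cells were also deeper, at a median of 13182 against 6065 UMIs in control cells and 13104 against 6429 in knockout cells, and lower in the summed CR markers, at 13844 against 16855 CPM and 14146 against 16182 CPM, and the part of depth was not tested. Grin3a, at 23.5 and 28.7 CPM in the control, had a ratio of 0.817 (0.514 to 1.25), or a log2 ratio of -0.29, nearer to that median. The 2 members with 100 UMIs in control cells and the 1 in knockout cells were all past the threshold downwards, where 43.7% of control genes and 44.7% of knockout genes were as well. Leaving these cells out changed the Grin1 ratio of the genotypes to 1.10 and that of Grin3a to 0.668, close to those of all cells. The direction for Grin3a in these cells turned when each cell was weighted equally, with a ratio of 1.08.

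The genes that work with the receptor were taken from a list of 57, of which 42 had 100 UMIs over both libraries. In the knockout 4 of the 42 were past the threshold upwards and 7 downwards, which is 9.52% and 16.7%, where all genes gave 16.3% and 13.2%, and their median log2 ratio was -0.02 where that of all genes was 0.01. Scaffolds of the postsynaptic density were present at all 13 entries, with Dlg2 (PSD-93) at 534 and 432 CPM, a ratio of 0.810 (0.758 to 0.865), and Dlg4 (PSD-95) at 86.8 and 71.2 CPM, a ratio of 0.821 (0.694 to 0.966), among the lower ones. Dlgap1, a protein that binds PSD-95, was at 15.6 and 25.3 CPM, a ratio of 1.62 (1.18 to 2.22), and Dlgap3 at 40.9 and 50.3 CPM, a ratio of 1.23 (0.994 to 1.51). Of the scaffolds 2 were past the threshold upwards, 3 downwards and 8 neither, so the group did not move one way.

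Among genes for trafficking and auxiliary proteins, Neto1, which binds NMDA and kainate receptors, was at 28.5 CPM in control cells and 43.7 CPM in the knockout, a ratio of 1.54 (1.21 to 1.94). Its paralogue Neto2, an auxiliary subunit of kainate receptors, was at 11.7 and 19.5 CPM, a ratio of 1.67 (1.16 to 2.40). Lin7c, part of a complex that carries NMDA receptors, was at 69.4 and 57.5 CPM, a ratio of 0.829 (0.687 to 0.995). The other 5 of the 8 trafficking genes with 100 UMIs were past the threshold in neither direction. Of kinases and phosphatases, Ppp3ca, the catalytic subunit of calcineurin, was at 524 and 432 CPM, a ratio of 0.825 (0.772 to 0.881), and Camk2b, a calcium and calmodulin dependent kinase, at 69.1 and 54.95 CPM, a ratio of 0.796 (0.658 to 0.958). Camk2a, the isoform abundant in principal neurons, was counted 8 and 17 times, or at 1.21 and 6.15 CPM, a ratio of 5.07 (2.07 to 13.6), and Actn2, an actinin that binds the receptor, 4 and 13 times, or at 0.606 and 4.70 CPM, a ratio of 7.76 (2.40 to 32.7). Both were among the 15 partner genes under 100 UMIs and enter no count here. The other 11 of 13 kinases and phosphatases with 100 UMIs were past the threshold in neither direction, nor were the 4 calcium target genes with as many, which were Ephb2 and the 3 calmodulin genes, or 3 of the 4 genes of D-serine and glycine supply.

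**Figure D5:**
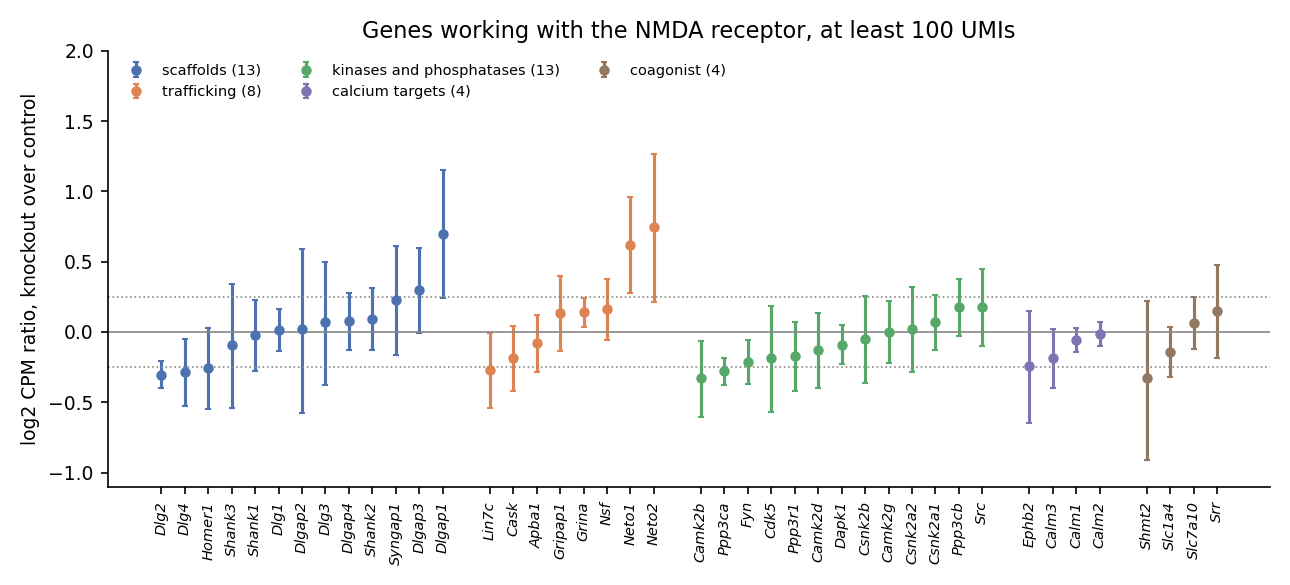
Log2 ratio of CPM in knockout over control cells for the 42 genes that work with the NMDA receptor and had at least 100 UMIs, by role, as points with 95% intervals (solid line, 0, and dotted lines, the threshold of 0.25 in each direction). The 4 genes Dlgap1, Dlgap3, Neto1 and Neto2 lie above the upper dotted line and 7 lie below the lower one.

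The genes most like Grin1 over control cells, among 7725 genes with a UMI in 10% of cells, were Fam227a, AC149090.1 and Gm49797, with Pearson correlations of 0.158, 0.148 and 0.134 on log2(counts per 10000 + 1) over 1003 cells. In the 390 knockout cells the same correlations were -0.013, -0.0089 and 0.068. The likeness was weak and did not recur, and no other member was found in the 20% of cells needed for this comparison. Grin1 and Grin3a themselves had correlations of -0.073 in control and 0.023 in knockout cells. All cells of a library share its depth and free RNA.

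The letters TGAATGAA and TGAATGGA, which capicua binds, were looked for on both strands of RefSeq promoters on GRCm38, from 250 bases before to 50 bases after each gene's start. Promoters were given for Grin1, Grin2c, Grin2d and Grin3b, and none held either word, beside 2.47% of 32851 promoters that did. None was given for Grin2a, Grin2b and Grin3a. At so low a share, so few promoters would mostly hold no such word, so no conclusion on capicua binding is drawn.

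By GENCODE on GRCm38, Grin1 (ENSMUSG00000026959) lies on chromosome 2 at 25291181 to 25319187, and the antisense gene Grin1os covers its 3′ end from 25291220 to 25298925. Grin1os had 66 and 24 UMIs, and no source used here states whether strand was used in counting, so what part of Grin1 may belong to it was not measured. Grin3a (ENSMUSG00000039579) lies on chromosome 4 at 49661611 to 49845744 with Ppp3r2 inside it on the same strand, which had 0 and 1 UMIs. Grin2d (ENSMUSG00000002771) lies on chromosome 7 at 45831883 to 45878378. The antisense gene Gm45441 overlaps the 3′ end of Grin2d from 45831883 to 45835249 and had 1 and 0 UMIs. The 5′ end of Grin2d overlaps Kdelr1 on the other strand, which had 403 and 181 UMIs. Grin3b (ENSMUSG00000035745) lies on chromosome 10 at 79970715 to 79977190. Tmem259 covers its 3′ end on the other strand from 79974948 to 79977190 and had 380 and 176 UMIs. What part of the Grin2d and Grin3b counts may belong to these genes was not measured either. Grin2a (ENSMUSG00000059003) lies on chromosome 16 at 9567898 to 9995560, Grin2b (ENSMUSG00000030209) on chromosome 6 at 135713233 to 136173511 and Grin2c (ENSMUSG00000020734) on chromosome 11 at 115249169 to 115267243. The annotated 3′ untranslated regions differ widely, at 18868 bases for Grin2b and 9932 for Grin2a against 1190 for Grin1, and their part in how well each gene was caught was not tested.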

How the data were processed

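Cells sorted by tdT were made into 1 library per genotype with a droplet kit that reads 3′ ends. The authors deposited raw UMI counts per gene and barcode for all barcodes, before cell calling and with no normalization. The header of the matrices names Cell Ranger 4 and the submitters' processing notes name Cell Ranger 8.0.1 and mm39, whereas the methods of the study name a different version of Cell Ranger and mm10. Whether intronic reads were counted is not given in the sources used here. The matrices held 16336796 control and 6777071 knockout UMIs.

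Barcodes with at least 2000 UMIs and 5 Reln UMIs were kept as cells, spanning 2012 to 31769 UMIs (control) and 2769 to 33453 UMIs (knockout). Doublets were not removed, and an upper UMI limit was tried instead. Counts were summed per group and divided by UMIs outside the mt-, Mrp, Rpl and Rps gene symbols to give CPM. Intervals were exact Poisson for CPM, conditional binomial for ratios and Clopper-Pearson for shares, at 95%. They cover counting error only, since cells are not replicates. With 1 library per genotype, no p-value was computed. A gene counted as past the threshold at a log2 ratio of 0.25 with at least 100 UMIs over both groups. All 7 members are named, and of the partner list up to 5 genes each way, ranked by whichever interval bound lay closer to 1. Camk2a, Actn2 and the other genes named were chosen after their values were seen. Members, lists and groups were chosen with earlier results of these data known. Free RNA was measured in droplets of 20 to 100 UMIs. Coordinates and coding stretches came from GENCODE M21 (GRCm38) by Ensembl identifier, and promoters from RefSeq (GRCm38.p6). The coding stretch of 1 member is not reported here. Python 3.11.15, numpy 2.4.6, scipy 1.17.1, pandas 2.3.3 and matplotlib 3.10.9 were used. The ratios, their intervals and the threshold were tried on simulated Poisson counts. Such counts hold counting error only, so they cannot test the intervals against spread between cells, and the other steps were not simulated. Alternatives were other UMI and Reln minimums, quality limits, scalings, thinning, free RNA subtraction, positivity limits and 1 sex at a time.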

Additional observations from a re-analysis of the deposited data

Results flagged for a closer look

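Barcodes outside the rule for CR cells held Grin2 RNA. Of the 16 knockout barcodes with at least 2000 UMIs but under 5 Reln UMIs, 6 held a member. One of 3826 UMIs without Reln held 8 Grin2a and 8 Grin2b UMIs, no Grin1 and 9 UMIs of pyramidal or granule markers, and another of 2911 UMIs held 2 Grin2b UMIs and 3 of those markers. In all, these 16 barcodes gave 9 Grin2a and 10 Grin2b UMIs, where the 390 knockout CR cells gave 2 and 10. The 8 such barcodes of the control held no member, which allows up to 3 UMIs of each.

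Fainter barcodes, of at least 500 and under 2000 UMIs, held 38 Grin1 and 5 Grin2d UMIs in 191 control barcodes and 5 Grin1 UMIs in 51 knockout barcodes. Grin1 stood at 257 CPM in those of the control (182 to 353) and 124 CPM in those of the knockout (40.4 to 290.03), and Grin2d at 33.8 CPM in the control (11.0 to 78.9).

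Grin1 lay on opposite sides of 1 between cells with and without Cck in the libraries, at 0.904 in the control and 1.05 in the knockout, as did the 7 genes summed, at 0.922 and 1.04. The difference between the libraries was not tested.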

How the results depend on the processing

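No paired analysis was possible because each genotype had 1 library. Grin1 kept a ratio above 1 between Chst8/Alkal2-positive and negative cells under all 14 alternatives in each library, from 1.14 to 1.35 in the control, where 12 were past the threshold, and from 1.45 to 2.02 in the knockout, where 14 were. Grin3a over Grik1 in the control ranged from 1.498 to 2.10 over 12 alternatives, though in thinned cells the interval held 1. Grin3a between the genotypes was past the threshold in 11 of 12, from 0.488 in male to 0.924 in female cells. Thinning was not among these 12, and in thinned cells Grin3a had a UMI in 3.79% of control and 3.59% of knockout cells. In female cells the ratio of the summed genes was 1.16 and Grin2b was 12.5% of the control Grin2 UMIs, against 23.5% in all cells. With positivity also taken from counts thinned to 2000 UMIs, the summed ratio with Cck was 0.793 in control cells and 0.809 in the knockout. That with Chst8 or Alkal2 in the knockout was 1.92 in such counts, or 1.71 with at least 2 UMIs for positive cells. Chst8 alone and Alkal2 alone were tried after seeing the data. Thinning brought the share of control cells with a UMI to 35.7% for Grin1, 3.79% for Grin3a, 0.997% for Grin2d and 0.299% for Grin2b and Grin3b, and of knockout cells to 37.4%, 3.59% and 0.256% for Grin1, Grin3a and both Grin2d and Grin3b. Grin3a in respiratory-gene-high control cells turned to 1.08 with each cell weighted equally. With at least 200 UMIs, 2 partner genes were past the threshold upwards. Of 7 members, 4 (control) and 3 (knockout) kept their rank per kilobase of transcript, and 2 and 1 per kilobase of gene span. The causes were not tested. Of 906 values under the alternatives, 838 stayed within the main interval or within 1.5 times a count. Many of the 906 belong to members under 100 UMIs, whose wide intervals an alternative could hardly leave. The alternatives also draw on the same libraries, so this total says little on how firm the results are. The counts left 5 of the 7 members under 100 UMIs over both libraries, and the part of depth in this was not tested.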
